A study of Sus scrofa with 8 samples.

Results

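ATP2A2, ASB3, BBX and DPF2 are 4 pig genes that the Affymetrix porcine array measures with more than 1 probe set each, and whose probe sets gave different answers in a comparison of livers from 2 breeds. A probe set is a group of short probes that reports on 1 stretch of a transcript. Every probe set whose array annotation names exactly 1 of these genes was taken, dim ones included, which gave 17 of the 23999 probe sets that are not controls: 4 for ATP2A2, 2 for ASB3, 8 for BBX and 3 for DPF2. All 17 lay above the lowest 40% of probe sets by mean, which were left out of the test. The genes were picked because earlier results of these same values showed the brightest probe set higher in 1 breed and others of the gene not so. The differences between the breeds given for them, and the distances between probe sets of a gene, are therefore a description with no test.

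Liver RNA came from 4 Korean native pigs (KNP, an indigenous Korean breed, 7 months old) and 4 Yorkshire pigs (YS, a commercial breed, 6 months old). Each animal has an array of its own. By the labels, husbandry did not differ between the pigs and the RNA was taken at the tip of the liver's largest lobe. The labels name no engineered allele and no agent. Age follows breed, so the 2 cannot be told apart. In whole tissue, a change in the number of cells of a type and a change in RNA per cell cannot be told apart either.

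ATP2A2 encodes SERCA2, the pump that moves calcium from the cytosol into the endoplasmic reticulum. Its transcripts are known to be spliced differently at the 3' end, giving a form of heart and slow muscle and a form found in most cells, liver included. ASB3 is an ankyrin repeat protein whose SOCS box joins elongins and cullin-5 in a ubiquitin ligase, and in human cells it is known to target the tumour necrosis factor receptor TNFRSF1B. BBX is a DNA-binding protein with an HMG box, a fold that bends DNA. DPF2 is a subunit of the BAF complex, which moves nucleosomes, and its PHD fingers bind modified histone H3.

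The arrays differed in ways that bear on every value. Array medians lay between 152 and 169 for KNP and between 153 and 179 for YS, while the brightest probe set of an array reached 50730 to 60066 in KNP and 83646 to 95919 in YS. Controls spiked into the hybridization were dimmer in KNP, with a geometric mean of 3544 ± 615 against 6050 ± 1099 for YS (SD, 4 arrays each; two-sided exact permutation p = 0.0286, the lowest value possible with 35 splits). For 1 pair of actin controls the 3' to 5' signal ratio, a measure that increases with RNA breakdown, averaged 4.83 ± 1.88 for KNP and 10.5 ± 1.45 for YS (exact permutation, p = 0.0286). The other actin pair gave 0.311 ± 0.197 for KNP and 0.245 ± 0.183 for YS (exact permutation, p = 0.686). Both of 2 GAPDH pairs averaged higher in YS. The first gave 3.04 ± 0.71 for KNP and 3.50 ± 0.41 for YS (exact permutation, p = 0.314). The second gave 3.21 ± 0.71 for KNP and 4.33 ± 0.77 for YS (exact permutation, p = 0.114). The part of these differences in the results below was not tested. Of 6 hepatocyte markers, all lay in the top 1% of probe sets by mean intensity, with ALB the brightest.

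The 4 probe sets with the highest mean of their gene were higher in KNP, and none of the other 13 passed the test. Each of the 4 had all KNP values above all YS values, with ATP2A2 showing the largest difference and BBX the smallest. In the fit over the whole table, 4 of 17 member probe sets passed an adjusted p of 0.05, all higher in KNP, where 1.03% of the 14399 probe sets tested passed (0.424% higher and 0.611% lower in KNP). Those 4 calls chose the genes, so nothing is read from that count. Leaving out any 1 YS animal left ATP2A2 as the only member called, and with a replicate block none was. The breeds did not overlap in 6 of the 17, but 4 of these are the probe sets that chose the genes, so nothing is read from this count either. Among the 13 others the breeds did not overlap in 2, both with all KNP below all YS. Of all probe sets tested 9.68% showed no overlap (4.01% with all KNP above all YS and 5.67% below). The 13 others had a median log2 difference (KNP minus YS) of -0.06, beside -0.01 over all probe sets tested.

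**Figure D1:**
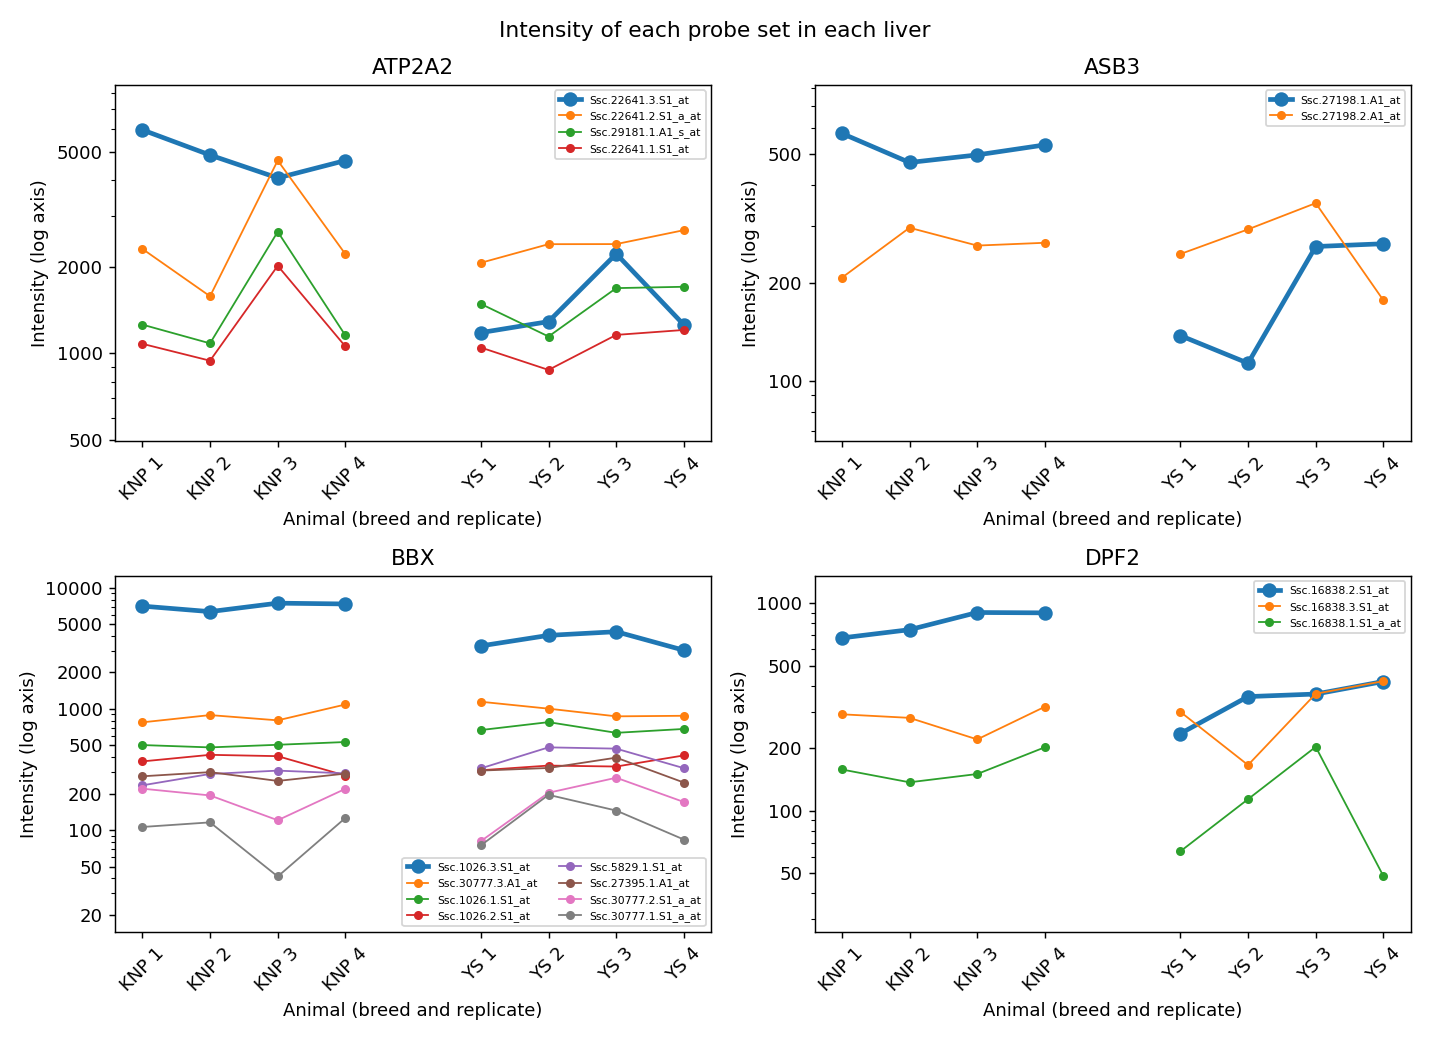
Intensity (log axis) of each of the 17 probe sets in each of the 8 livers, 1 panel per gene, with KNP animals left of YS animals. The thick line marks the probe set with the highest mean, and lines only join the values of 1 probe set, since replicates have no order. The thick lines lie higher in all KNP than in all YS animals, at 4051 to 5943 against 1181 to 2213 for ATP2A2, while most thin lines overlap between the breeds.

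The brightest ATP2A2 probe set, Ssc.22641.3.S1_at, had intensities of 5943, 4862, 4051 and 4655 in the 4 KNP livers, against 1181, 1289, 2213 and 1256 in the 4 YS livers. The highest YS liver was below the lowest KNP liver. It averaged 4878 ± 789 in KNP and 1485 ± 488 in YS (SD, n = 4 per breed), a ratio of means of 3.29 and a log2 difference of 1.74 (SE 0.21).

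The other 3 probe sets of the pump gene showed no such step. Ssc.22641.2.S1_a_at read 2302, 1578, 4656 and 2206 in KNP livers and 2060, 2390, 2392 and 2672 in YS livers (log2 difference 0.062, SE 0.27). Ssc.29181.1.A1_s_at read 1259, 1084, 2639 and 1154 in KNP livers and 1485, 1145, 1684 and 1702 in YS livers (log2 difference -0.06, SE 0.27). In both, the KNP range enclosed the YS range, with KNP replicate 3 above every other liver and KNP replicate 2 below. Ssc.22641.1.S1_at read 1080, 944, 2012 and 1058 in KNP livers and 1049, 877, 1160 and 1206 in YS livers (log2 difference 0.19, SE 0.23). Here too KNP replicate 3 was the highest of the 8 livers. The annotation ties all 4 probe sets to 1 RefSeq transcript of ATP2A2, so it does not separate them by isoform. Their suffixes differ: in Affymetrix naming, _a_at marks probes that recognise several transcripts of 1 gene, _s_at probes shared by several transcripts, and a plain _at probes unique to the sequence they were designed on.

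Probe sets bind with different strength, so their levels cannot be set against each other, but the distance between 2 of them on each array can be followed across animals. Ssc.22641.3.S1_at minus Ssc.22641.1.S1_at, on the log2 scale, was 2.44, 2.35, 1.00 and 2.12 in KNP livers, against 0.169, 0.547, 0.923 and 0.057 in YS livers. KNP replicate 3 and YS replicate 3 lay next to each other, and the breeds did not overlap. The mean distance was 1.98 ± 0.66 in KNP and 0.42 ± 0.39 in YS (SD, n = 4 per breed). Against Ssc.29181.1.A1_s_at and Ssc.22641.2.S1_a_at the distance was larger in KNP by 1.80 and 1.68, with an overlap between the breeds in the last of these.

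**Figure D2:**
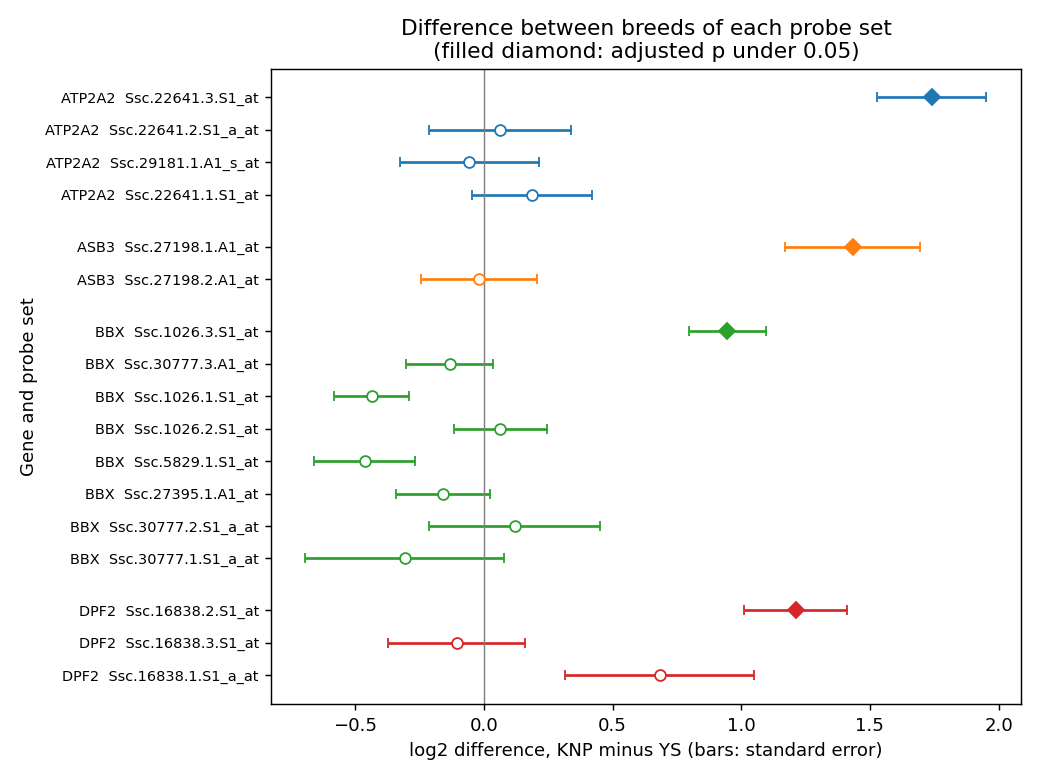
log2 difference, KNP minus YS, of each of the 17 probe sets with its standard error, grouped by gene and ordered by mean intensity. The first probe set of each gene lies between 0.95 and 1.74, and the 13 others lie between -0.46 and 0.68, with 8 of them below 0.

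How the ATP2A2 probe sets moved among animals of 1 breed is independent of the contrast that chose the gene. After the mean of each breed was removed, the 3 other probe sets had correlations of 0.884 to 0.996 with each other over the 8 livers, and 1 of the 3 pairs passed the adjusted test. Ssc.29181.1.A1_s_at and Ssc.22641.1.S1_at had a Pearson r of 0.996 and a Spearman rho of 1.0 (exact permutation p = 0.0017, the smallest that 576 orders within breeds allow, adjusted p = 0.0425 over 25 pairs). Without the 2 livers farthest from the median r was 0.989, and without KNP replicate 3 it was 0.979. The 25 pairs lay outside the planned test, which held only pairs with the brightest probe set. Probe sequences were not used, so whether these 2 probe sets read the same stretch was not tested. Each of these probe sets had an r of 0.884 or 0.912 with Ssc.22641.2.S1_a_at (exact permutation p = 0.0399 and 0.0226, adjusted p = 0.249 for both over 25 pairs, rho 0.786 for both, n = 8 livers). Without the 2 livers farthest from the median r was 0.467 and 0.525, and without KNP replicate 3 it was 0.364 and 0.501, so these 2 relations rested on that animal.

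No such relation was detectable for the brightest ATP2A2 probe set. Its r with the 3 others was -0.24, -0.14 and -0.18 (rho -0.14, -0.36 and -0.36; exact permutation p = 0.469, 0.632 and 0.562; adjusted p = 0.858 for each over 13 pairs; n = 8 livers). KNP replicate 3, which stood 0.721 to 0.908 above the KNP mean on the log2 scale in the 3 others, stood at -0.25 in the brightest. Leaving out the 2 livers farthest from the median gave r of -0.67, -0.69 and -0.69, and leaving out KNP replicate 3 gave 0.206, 0.444 and 0.371, so the sign depends on single animals.

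**Figure D3:**
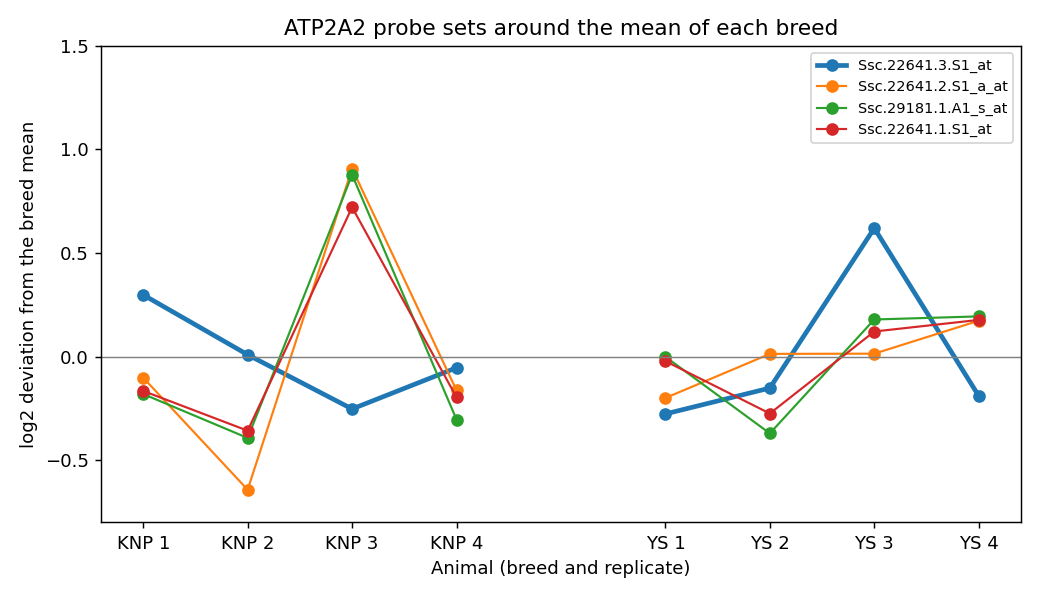
log2 deviation of each ATP2A2 probe set from the mean of its breed, in 4 KNP and 4 YS livers, with lines joining the values of 1 probe set. KNP replicate 3 lies at 0.721 to 0.908 in 3 probe sets and at -0.25 in Ssc.22641.3.S1_at (thick line), which peaks in YS replicate 3 at 0.62.

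ASB3 has 2 probe sets of 1 sequence cluster, built on different source sequences. Ssc.27198.1.A1_at had intensities of 578, 470, 496 and 533 in KNP livers, against 138, 113, 259 and 264 in YS livers. The KNP livers lay close together, and the YS livers fell into a lower and a higher pair, both below all KNP values. The means were 519 ± 46.9 in KNP and 193 ± 79.3 in YS (SD, n = 4 per breed), a log2 difference of 1.43 (SE 0.26). Ssc.27198.2.A1_at read 207, 296, 261 and 266 in KNP livers and 246, 293, 352 and 177 in YS livers, a log2 difference of -0.02 (SE 0.23). The YS livers spanned the whole KNP range there. The distance between the probe sets was 0.98 ± 0.32 on the log2 scale in KNP and -0.48 ± 0.76 in YS (SD, n = 4 per breed), without overlap. Within breeds their r was -0.26 (rho -0.29, exact permutation p = 0.703, adjusted p = 0.858 over 13 pairs, n = 8 livers) and 0.444 without the 2 livers farthest from the median.

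BBX has the most probe sets of the 4 genes, 8 from 4 sequence clusters, each built on a source sequence of its own. Ssc.1026.3.S1_at had intensities of 7056, 6356, 7464 and 7352 in KNP livers, against 3312, 4047, 4339 and 3048 in YS livers. The lowest KNP value was above the highest YS value. It averaged 7057 ± 498 in KNP and 3687 ± 606 in YS (SD, 4 livers each; log2 difference 0.95, SE 0.15).

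Of the 7 further BBX probe sets, 5 had a difference below 0 and 2 above, from -0.46 to 0.12. In 2 of them the breeds did not overlap and the order was turned round. Ssc.1026.1.S1_at, of the same sequence cluster as the brightest, read 503, 481, 506 and 533 in KNP livers, against 669, 778, 635 and 683 in YS livers (log2 difference -0.44, SE 0.15). All KNP values were below all YS values, so 2 probe sets of 1 cluster separated the breeds in opposite directions. Ssc.5829.1.S1_at read 234, 290, 309 and 294 in KNP livers, against 323, 482, 470 and 324 in YS livers (log2 difference -0.46, SE 0.20). Neither passed the adjusted threshold, and all KNP values lay below all YS values in 5.67% of all probe sets tested. The third probe set of that first cluster, Ssc.1026.2.S1_at, had means of 369 ± 61.9 in KNP and 350 ± 44.0 in YS (SD, 4 livers each; log2 difference 0.065).

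The remaining BBX probe sets overlapped between the breeds. Ssc.30777.3.A1_at averaged 889 ± 141 in KNP and 974 ± 130 in YS, and Ssc.27395.1.A1_at 281 ± 20.3 in KNP and 319 ± 61.4 in YS (SD, n = 4 per breed). The dimmest were Ssc.30777.2.S1_a_at, at 188 ± 46.7 in KNP and 181 ± 78.7 in YS, and Ssc.30777.1.S1_a_at, at 97.3 ± 38.2 in KNP and 125 ± 56.6 in YS (SD, n = 4 per breed). The last of these lay below the array medians in both breeds on average. KNP replicate 3 was the lowest KNP liver in both of these, at 121 and 41.4.

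The distance from the brightest BBX probe set to the others was larger in KNP for all 7, by 0.83 to 1.41 on the log2 scale, and the breeds overlapped in 1 of the 7 (Ssc.30777.2.S1_a_at). All 7 distances share the brightest probe set, and the gene was chosen because that probe set was higher in KNP, so this is a description. Among KNP livers the distance varied least for Ssc.1026.1.S1_at, at 3.76 ± 0.067 in KNP and 2.38 ± 0.26 in YS (SD, n = 4 per breed). Within breeds the brightest BBX probe set had r from -0.41 to 0.794 with the other 7, and none of these had an exact permutation p under 0.05. The highest was with Ssc.5829.1.S1_at (r = 0.794, rho = 0.857, exact permutation p = 0.153, adjusted p = 0.858 over 13 pairs, n = 8 livers), which was 0.656 without the 2 livers farthest from the median. The differences of these 2 probe sets between the breeds had opposite signs.

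DPF2 has 3 probe sets of 1 cluster, with 3 source sequences. Ssc.16838.2.S1_at had intensities of 681, 746, 903 and 900 in KNP livers, against 235, 355, 365 and 420 in YS livers. All KNP livers were above all YS livers, with means of 807 ± 112 in KNP and 344 ± 77.7 in YS (SD, 4 livers each; log2 difference 1.21, SE 0.20). Ssc.16838.3.S1_at read 292, 280, 221 and 317 in KNP livers and 300, 166, 366 and 422 in YS livers (log2 difference -0.10, SE 0.27). The YS livers enclosed the KNP range. Ssc.16838.1.S1_a_at read 158, 137, 150 and 202 in KNP livers and 63.7, 114, 203 and 48.4 in YS livers (log2 difference 0.68, SE 0.37). It ran the same way as the brightest in 3 of the 4 YS livers, which lay below all KNP livers, while YS replicate 3 was the highest of all 8. Its distance to the brightest differed between the breeds by 0.53, less than the pooled SD of 0.59. That distance rested on single animals: it was 0.235 without YS replicate 3 and 0.888 without YS replicate 4.

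Among each other, the 4 brightest probe sets had r from -0.08 to 0.54 within breeds (median 0.334 over 6 pairs, 8 livers each), and none of the 6 had an exact permutation p under 0.05. These 6 pairs were chosen after the values were seen.

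In most genes with a called probe set another was not called, which alone does not show that the 2 differ. Of 1329 genes with at least 2 tested probe sets, 43 had a called one, and in 40 of the 43 another tested probe set was not called. In 15 of the 43 some probe set had the opposite sign. The spread of a gene, taken as its highest minus its lowest log2 difference, had a median of 0.322 over the 1329 genes and of 0.741 over the 43. It was 1.80 for ATP2A2, 1.45 for ASB3, 1.41 for BBX and 1.32 for DPF2. The genes were chosen for such a spread, and it can only grow with the number of probe sets, so no rank is read from it. A spread of 1 or more was found in 90 of the 1329 genes, 13 of which had a called probe set. Among other genes with a called probe set the widest were B2M, a chain of class I molecules (2.05 over 9 probe sets), the transcription factor ETS2 (1.84 over 3) and PLBD1 (1.77 over 3).

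**Figure D4:**
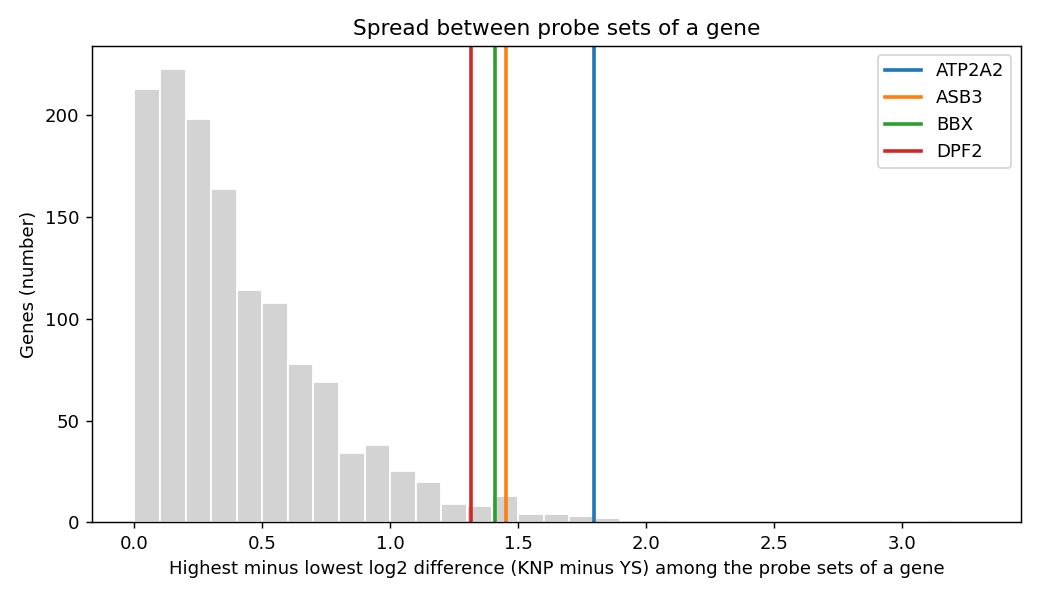
Number of genes by the spread of the log2 difference, KNP minus YS, among their tested probe sets (1329 genes, bins of 0.1), with the 4 genes as vertical lines. The lines lie between 1.32 and 1.80, to the right of most genes, whose median is 0.322.

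The partners of these genes were set beside them with the brightest probe set of each, from lists drawn up with earlier results known. Of 5423 genes tested this way 1.36% were called, and their median log2 difference was -0.02. Of 28 listed genes of calcium handling, 23 had a probe set and 16 were tested; none was called, and 8 of the 16 had a difference above 0 (median -0.01). PDIA3, an oxidoreductase that folds glycoproteins in the reticulum, read 9705, 9057, 14856 and 7867 in KNP livers, against 4964, 6300, 4878 and 5590 in YS livers. The breeds did not overlap, at a log2 difference of 0.90 (SE 0.19, limma adjusted p = 0.0590). Its other probe sets showed 1.95 and 0.443, with limma adjusted p of 0.0558 and 0.373, so all 3 ran the same way. SLN, sarcolipin, a small inhibitor of the pump, had means of 95.9 ± 14.9 in KNP and 152 ± 48.2 in YS (SD, n = 4 per breed, limma adjusted p = 0.415). HSPA5, the chaperone BiP, averaged 15644 ± 7172 in KNP and 18138 ± 4079 in YS (SD, n = 4 per breed, limma adjusted p = 0.670).

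KNP replicate 3 stood out in some of this list as it did in 3 ATP2A2 probe sets. It was the highest of the 8 livers in 5 of the 16 tested members, and in 13.9% of all probe sets tested. Among the 4 KNP livers alone it was the highest in the same 5 members, and in 24.9% of all probe sets tested. The 5 were HSPA5, HSP90B1, CANX, PDIA3 and TMCO1, named after their values were seen. CALR, a chaperone of the same list, was not among them, at 987 in KNP replicate 3, against 809 to 1254 in the other KNP livers and 809 to 1298 in YS livers. ATP2C1 of the same list ran the other way, with KNP replicate 3 the lowest of the 8 livers. It read 1018 there, against 1283 to 1365 in the other KNP livers and 1285 to 1395 in YS livers. HSPA5 read 25403 in KNP replicate 3, against 8156 to 14960 in the other KNP livers and 13518 to 23250 in YS livers. HSP90B1 read 20670 there, against 7283 to 11854 in the other KNP livers and 11300 to 15290 in YS livers.

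Of 28 genes of the ASB family and the cullin-5 ligase, 12 had a probe set and 11 were tested. Of the 11, 1 was called higher in KNP and 0 lower, and 6 had a difference above 0 (median 0.003). UBE2M, which passes NEDD8 to cullins, read 441, 498, 485 and 447 in KNP livers, against 206, 308, 218 and 272 in YS livers. The breeds did not overlap (log2 difference 0.87, SE 0.18, limma adjusted p = 0.0458), and the call was lost after quantile normalization. UBE2F and RNF7 of the same list, named after their values were seen, showed 0.078 and -0.02 (limma adjusted p = 0.867 and 0.975). A link of the UBE2M difference to the cullin-5 ligase was not tested. ELOB, elongin B, which the SOCS box binds, had means of 4645 ± 414 in KNP and 6383 ± 132 in YS (SD, 4 livers each; log2 difference -0.46, limma adjusted p = 0.110). All 4 KNP values of ELOB, 4279 to 5225, lay below all 4 YS values, 6237 to 6507. ASB13 showed -0.43 with its brightest probe set (limma adjusted p = 0.252) and 0.281 with the other (adjusted p = 0.557).

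Of 27 HMG-box proteins, 13 had a probe set and 11 were tested; none was called and 4 of 11 had a difference above 0 (median -0.10). The largest differences were those of LEF1, a factor of Wnt signalling, at 104 ± 28.9 in KNP and 177 ± 48.4 in YS, and TOX3, at 108 ± 21.8 in KNP and 161 ± 18.9 in YS (SD, n = 4 per breed, limma adjusted p = 0.293 and 0.320). The breeds overlapped in LEF1 and not in TOX3, which was lower in all KNP livers. HMGB1, an abundant chromatin protein, showed -0.04 with its brightest probe set and -0.28 to -0.04 over all 4, so its probe sets lay within 0.3 of each other.

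Of 28 BAF genes, 15 had a probe set and 14 were tested. Of the 14, 0 were called higher in KNP and 1 lower, and 6 had a difference above 0 (median -0.05). The called gene was ACTB, beta-actin, which is a subunit of the complex and also the main cytoskeletal actin of most cells. It averaged 24526 ± 1823 in KNP and 38171 ± 4484 in YS (SD, 4 livers each; log2 difference -0.63, SE 0.12, limma adjusted p = 0.0397), and showed -0.21 after quantile normalization, where its call was lost. All KNP values of this probe set, the brightest of ACTB, lay below all YS values. The other ACTB probe set showed -0.57 (SE 0.23, limma adjusted p = 0.275) and was not called. SMARCD2 and ARID2, both subunits of BAF-type complexes, showed 0.377 and 0.322 (limma adjusted p = 0.547 and 0.647).

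Genes whose intensity moved most like each brightest probe set within breeds were named by Pearson r over the 8 livers, among the 7181 to 7187 tested probe sets of other genes that have 1 symbol; all share the same arrays, and no test was made. For ATP2A2 they were TMEM248 (r = 0.972) and NFIA (0.946), for ASB3 IDH3A (0.991) and ZDHHC1 (0.987), for BBX PROM2 (0.985) and MTG1 (0.945), and for DPF2 TBC1D20 (0.976) and RUFY1 (0.95). Picking the highest r among so many candidates over 8 livers can by itself give values this high, so no relation is read from them. None of the 8 genes was called between the breeds, and their log2 differences ran from -0.48 to 0.435.

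Markers of other cell types were compared as sums of the brightest probe sets. Of 7 muscle markers 6 had a probe set, and 4 of these lay in the lowest 40%; the sum ran from 313 to 544 in KNP and from 395 to 475 in YS. Of 6 Kupffer cell markers 3 had a probe set, summing to 4681 to 8499 in KNP and 2611 to 5993 in YS. Of 5 endothelial markers 4 summed to 2406 to 2759 in KNP and 1648 to 2964 in YS, of 5 stellate cell markers 4 to 1105 to 3405 in KNP and 1037 to 2567 in YS, and of 6 blood cell markers 4 to 883 to 1305 in KNP and 939 to 994 in YS. No marker was at 0, the sums overlapped between the breeds in each of these 5 lists, and their part in the results was not tested. By single tested markers, 2 of 2 of Kupffer cells, 3 of 3 of endothelium and 3 of 3 of blood cells had a difference above 0. The medians were 0.524, 0.21 and 0.17. Of stellate cell markers 1 of 3 and of muscle markers 1 of 2 lay above 0 (medians -0.05 and -0.07). None of the markers in these 5 lists was called. The 6 hepatocyte markers did not overlap, summing to 229493 to 276928 in KNP and 376215 to 407721 in YS. All 6 had a difference below 0, and 5 of them were called lower in KNP. Their median of -0.60 was -0.01 after quantile normalization, where 0 were called.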

How the data were processed

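Each probe set has a linear intensity, deposited by the authors and made with GCOS 1.3 per the submitters' processing notes. The labels give total RNA as the material and biotin as the label. Leaving out the lowest and highest 2% of values, each array averaged 500.1, which shows a scaling per array. The sources used here give no signal algorithm, background step or dates, and no detection calls were used. With 4 arrays per breed, it is the number of arrays that limits precision.

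Of 24123 probe sets 124 controls were left out. Values were taken as log2(value + 16), the lowest 40% by mean were left out, and 14399 were fitted with limma 3.58.1 (R 4.3.3; lmFit, eBayes with an intensity trend, breed as the only term, two-sided, Benjamini-Hochberg over all 14399). Means and SD are intensities; log2 differences are signed as KNP minus YS. Within-breed correlations used exact two-sided permutation within breeds, adjusted within families of 13, 25 and 6 pairs; array measures used exact permutation over 35 splits. The fit and the correlation test were tested on simulated data.

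The platform annotation gave 10069 probe sets 1 symbol, 198 several and 13732 none; all 17 members had the same symbol in the gene table of Sscrofa11.1. That table was used for names alone, and probe sequences and coordinates were not used here. Named were all member probe sets; per list, up to 4 called genes, the 2 largest other differences and the brightest; per brightest member, the 2 most similar genes; and the 3 widest other genes with a called probe set. Members, lists and tests were chosen with earlier results of these data known. Alternatives were quantile normalization, median centring, a pseudocount of 1 or 64, no filter on dim probe sets or a filter on the lowest 60%, no trend, array weights, leaving out each animal, a replicate block, and the mean of a gene's probe sets. Quantile normalization and leaving out KNP replicate 3 for the correlations were added after seeing the data. The plan for the correlations held the family of 13 pairs, and those of 25 and 6 pairs lay outside it.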

Additional observations from a re-analysis of the deposited data

Results flagged for a closer look

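Single animals stood apart in 4 of 88 groups of 4 values examined, 3 of them among the 34 groups of the member probe sets; chance alone flags about 1 group in 20. In Ssc.29181.1.A1_s_at of ATP2A2, KNP replicate 3 read 2639, against 1084 to 1259 in the other KNP livers. In Ssc.22641.1.S1_at of ATP2A2, the same animal read 2012, against 944 to 1080 in the other KNP livers. In Ssc.22641.3.S1_at of ATP2A2, YS replicate 3 read 2213, against 1181 to 1289 in the other YS livers, and lay below all KNP livers. The median intensity of KNP replicate 4 was 169, against 152 to 155 on the other KNP arrays.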

How the results depend on the processing

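The 17 member differences and the 13 distances between probe sets were recomputed under 17 alternatives; each of the 289 differences and 221 distances moved by less than 1 SD between animals, and the brightest probe set of each gene was higher in KNP in every one. Since the brightest probe sets were chosen without overlap between the breeds, leaving out 1 animal could not turn them. Leaving out 1 of 4 animals also cannot shift the mean of that breed, for a probe set or a distance, by 1 SD. The filters on dim probe sets, leaving out the trend and the replicate block could not move a difference or a distance. Median centring could not move a distance. The values under these settings therefore carry no check. The calls were less stable. Of all 14399 probe sets 149 were called, and 14 after quantile normalization, 95 with median centring, 35 with no filter and 13 without the intensity trend; leaving out 1 animal gave 8 to 119. Of the 17 members 4 were called, 2 after quantile normalization (ATP2A2 and BBX) and 1 without the trend (ATP2A2), and 1 to 4 with 1 animal left out. ATP2A2 kept its call in 16 of 17 alternatives, BBX in 10, DPF2 in 9 and ASB3 in 6. Leaving out YS replicate 1, 2, 3 or 4 left ATP2A2 as the only member called (13, 23, 8 and 12 calls in all), and leaving out KNP replicate 1 or 3 left 2 members (53 and 78 calls in all). Replicate numbers name different animals and their deviations correlated between -0.02 and 0.051, so they do not pair the samples; with a replicate block 8 probe sets and 0 members were called. Of the called list genes, UBE2M and ACTB both lost their call after quantile normalization, which left 0 in each list.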
